A study of Mus musculus with 18 samples.

Results

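Retinal ganglion cells (RGCs) are the output neurons of the retina, and 10 genes that are used to define or mark them were examined for chromatin accessibility in whole mouse retina: the transcription factors Atoh7, Pou4f1, Pou4f2, Pou4f3 and Isl1, the RNA-binding protein Rbpms, the structural and synaptic proteins Nefl and Sncg, the surface protein Thy1 and the glutamate transporter Slc17a6. The genes were chosen by name, as 10 of the 55450 genes of the GENCODE M21 annotation of the mm10 (GRCm38) build. For each gene, every ATAC-seq peak from 10 kb before its start to its end was taken from 18 deposited peak lists, 1 per library. Peaks of different libraries that overlapped were merged, and a merged region with a peak in at least 2 libraries was kept. The 10 genes held 210 of 911837 listed peaks, of which 2 stood in 1 library each and the others fell into 21 of the 73567 regions kept in the genome. A region was found at 9 of the genes and none at Slc17a6. In all, 6 of the 21 regions (28.6%) were called in all 18 libraries, beside 33.6% of all regions in the genome, and 12 of the 21 were called in fewer than 9 libraries, beside 40.5% of all regions. The genes thus divided into those with a region over the start called in every retina (Atoh7, Pou4f1, Isl1 and Thy1), those with such a region called in some (Rbpms, Pou4f2, Nefl and Pou4f3), and those whose start carried no call at all (Sncg and Slc17a6). The peak of a library in such a region need not reach the start itself.

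ATAC-seq uses a transposase that inserts adapters into DNA that is not wrapped in nucleosomes, so that reads pile up over open promoters and enhancers and a peak caller can list them. Ganglion cell fate begins when retinal progenitors switch on Atoh7, a basic helix-loop-helix factor, which is followed by Pou4f2 and Isl1 and then by the genes of axon growth and synaptic output that the mature neuron keeps. RGCs are a small minority of retinal cells, most of which are rods. In a library of whole retina a change in the number of ganglion cells therefore cannot be told apart from a change in the accessibility of each cell, and open chromatin at Isl1 or Thy1 can also come from other retinal neurons that use these genes.

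The libraries came from wildtype mice (C57BL/6J in the study's text) and fell into 6 groups of 3. At each of 3 and 18 months of age (3mo and 18mo) the groups were contralateral control retinas, untreated retinas, and retinas of eyes whose intraocular pressure (IOP) had been raised to 30 mmHg during 1 hour. The contralateral retina was that of the opposite eye. Per the labels, the IOP and contralateral retinas were collected on day 2, while the study's text gives a later day. A treatment text shared by all labels also mentions an injected kinase inhibitor, dasatinib, or its vehicle, but no label ties it to a library, and it is unknown if any animal was injected. The contralateral retina is a control from an animal that did undergo the procedure, whereas the untreated retina is not. The labels do not say whether replicates were separate animals (the study's text calls them biological replicates), and the p-values below measure only the spread between these libraries.

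The lists held 36011 to 66160 peaks per library. They hold no reads per region, and a region without a call can be open below the threshold, so that a missing call is not a measured closure. The height of each summit in tags (reads piled up at that base) was recovered from the listed fold and −log10 p-value, and the weakest summits listed had 5 to 8 tags. The genome background, taken as the lowest local background that a list implied, was 0.731 to 0.946 tags in untreated libraries and 1.38 to 1.84 tags in the others. The shortest listed peak, which MACS2 ties to the fragment length it works with, divided the libraries in the same way: it was 79 to 89 bp in all 6 untreated libraries, 114 to 122 bp in 5 others and 148 to 157 bp in the remaining 7. The 5 libraries were replicates 1 and 3 of the 18mo contralateral group, replicate 2 of the 3mo contralateral group and replicate 1 of each IOP group. As a check of the tissue, the promoters of 6 of 6 rod markers were called in all 18 libraries, those of 6 markers of other tissues (Alb, Ins2, Myod1, Cd3e, Myh6 and Krt14) in none, and those of 6 microglial markers in none, although 5 of the 12 regions elsewhere at the microglial genes, at Cx3cr1 and C1qa, were called in all. Of 6 markers each, the promoters of Kdr (18 libraries) and Flt1 (13) were called among endothelial genes, and those of Rgr (18) and Tyrp1 (6) among genes of the retinal pigment epithelium. A promoter counted as called where the library had a peak in a region overlapping it, even if that peak lay outside the promoter.

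**Figure D1:**
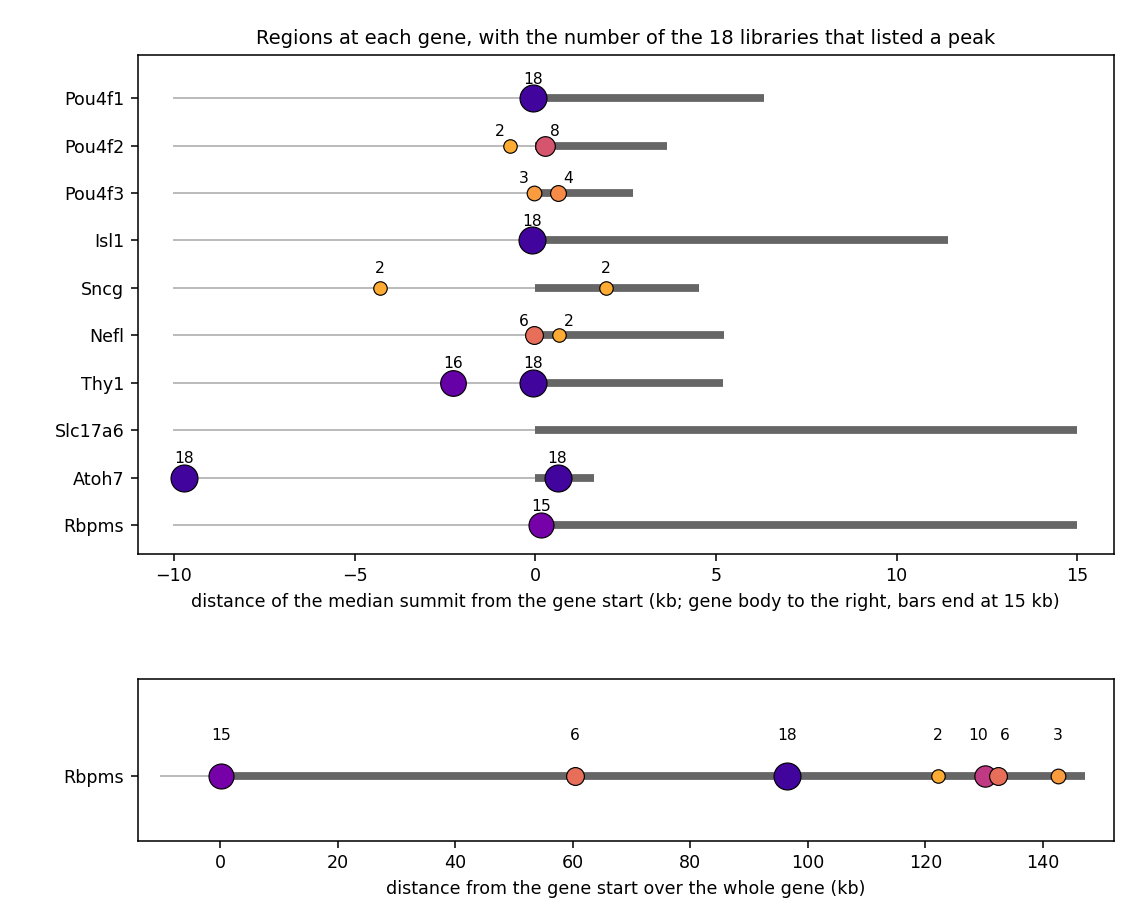
Regions at each of the 10 genes, by the distance of their median summit from the gene start in kb (upper panel) and over the whole of Rbpms (lower panel). Thin lines are the 10 kb before the start and thick bars the gene body, and the number and colour of each circle give how many of the 18 libraries listed a peak. Pou4f1, Isl1 and Thy1 carried an 18-library region at the start and Atoh7 one over its coding sequence, and Slc17a6 carried none.

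Pou4f1 and Isl1 were richer in GC just before the start than Thy1 and than the pair whose start was never called, and Thy1 lay close to that pair. The bases just before the starts of Pou4f1, Isl1 and Thy1 are shown beside those of Slc17a6 and Sncg to set an open start next to one without a call. The sequences are from the GRCm38 assembly of RefSeq, 5′ to 3′ on the strand of the gene. Capitals mark every match, on either strand, to a homeodomain motif (TAATTA), the Crx and Otx2 motif (TAATCC), an E-box (CAGCTG), a GC box (GGGCGG), the AP-1 motif (TGANTCA) or the STAT motif (TTCNNNGAA). Pou4f1 is at chr14:104468000-104468249 on the minus strand, Isl1 at chr13:116309690-116309939 on the minus strand and Thy1 at chr9:44043134-44043383 on the plus strand. Slc17a6 is at chr7:51621756-51622005 on the plus strand and Sncg at chr14:34374790-34375039 on the minus strand.
Pou4f1: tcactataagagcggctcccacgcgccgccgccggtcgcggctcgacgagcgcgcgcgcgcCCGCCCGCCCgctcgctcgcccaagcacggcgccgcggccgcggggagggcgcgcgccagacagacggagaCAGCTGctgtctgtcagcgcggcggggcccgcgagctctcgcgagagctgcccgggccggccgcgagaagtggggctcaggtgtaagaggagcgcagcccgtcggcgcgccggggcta
Isl1: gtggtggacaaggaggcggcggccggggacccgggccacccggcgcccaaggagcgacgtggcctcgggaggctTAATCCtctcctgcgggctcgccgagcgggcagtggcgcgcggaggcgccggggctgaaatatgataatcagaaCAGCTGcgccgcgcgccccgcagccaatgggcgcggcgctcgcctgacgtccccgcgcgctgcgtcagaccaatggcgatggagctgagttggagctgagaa
Thy1: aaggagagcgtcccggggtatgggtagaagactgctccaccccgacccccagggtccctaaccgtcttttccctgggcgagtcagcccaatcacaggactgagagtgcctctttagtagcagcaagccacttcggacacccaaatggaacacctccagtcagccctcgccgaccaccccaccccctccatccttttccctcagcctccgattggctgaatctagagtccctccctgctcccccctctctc
Slc17a6: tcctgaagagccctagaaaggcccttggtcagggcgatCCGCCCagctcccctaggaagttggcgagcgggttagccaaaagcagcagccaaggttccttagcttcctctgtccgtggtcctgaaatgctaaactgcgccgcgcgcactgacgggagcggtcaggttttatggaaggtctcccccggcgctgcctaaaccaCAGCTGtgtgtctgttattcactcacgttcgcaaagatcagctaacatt
Sncg: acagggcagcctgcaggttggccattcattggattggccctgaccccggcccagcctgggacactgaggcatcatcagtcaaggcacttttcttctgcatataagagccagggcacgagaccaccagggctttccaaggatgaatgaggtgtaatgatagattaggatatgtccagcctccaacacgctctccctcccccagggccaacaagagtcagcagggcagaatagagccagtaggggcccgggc

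GC content was 78% before Pou4f1 and 71.2% before Isl1, which placed them at percentiles 97.9 and 91.7 of the same stretch before 21755 protein-coding genes. It was 60.8% before Thy1, 57.2% before Sncg and 56.8% before Slc17a6, so that the 3 called starts were the GC-richest of the 5 shown, with Thy1 close to the pair without a call. Among the genes not shown GC content did not follow the calls. It was 77.2% before Rbpms (start region called in 15 libraries), 71.2% before Pou4f3 (3) and 70.4% before Pou4f2 (8). Before Nefl (6) it was 60% and before Atoh7 (18) 44.8%. CpG dinucleotides stood at 1.24 and 1.05 times the number expected from base composition before Pou4f1 and Isl1. The same ratio was 0.433 before Thy1 and 0.196 before Sncg, both without any of the 6 motifs, and 0.745 before Slc17a6, which carried 1 E-box and 1 GC box. Pou4f1 carried 1 E-box and 2 overlapping GC boxes on the opposite strand, and Isl1 carried 1 E-box and 1 TAATCC. Of all protein-coding genes, 12.1% held the E-box in this stretch, 39.3% the GC box and 6.86% TAATCC. A match is a run of letters and not a measured binding site.

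Atoh7, the factor that makes retinal progenitors competent to become ganglion cells, had the highest summits of the 10 genes by their median. Its single-exon gene lies at chr10:63099651-63101279 on the plus strand, and the region over it (chr10:63099638-63100681, 1044 bp) was called in all 18 libraries with the summit over coding sequence, at a median of 615 bp after the start. Not every library's peak reached the start. In 3mo untreated replicate 5 the peaks of both Atoh7 regions covered 480 bp together, and the summits of that group lay 646 to 665 bp after the start. The summits had 26, 17 and 39 tags in 3mo untreated retinas and 28, 34 and 33 in 18mo untreated retinas. In contralateral retinas they had 31, 71 and 33 tags at 3 months and 56, 41 and 60 at 18 months. After IOP they had 59, 44 and 46 tags at 3 months and 62, 51 and 41 at 18 months. The lower tag numbers of the untreated retinas went with their lower background. Divided by the genome background, the summits stood at 20.7 to 51.6 times in 3mo untreated and 20.4 to 46.2 times in 3mo contralateral retinas, which overlapped in tags too. The same 2 groups at 18 months did not overlap in tags. On the background scale they did, at 32.5 to 38.0 times in untreated and 25.4 to 43.6 times in contralateral retinas. A second region lay before the gene in intergenic sequence (chr10:63089724-63090655, 932 bp, median summit at -9.73 kb) and was also called in all 18 libraries, with 13 to 41 tags or 9.63 to 34.4 times the background. It stands just inside the 10 kb limit of the window.

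The start of the Atoh7 coding sequence is shown because the summit lies over it, together with the coding part of the Pou4f2 start region, which was called in 8 libraries only, and with the regions away from a start on which the comparisons below turn. Capitals mark the same motifs. The Atoh7 coding bases are at chr10:63100156-63100455 and the bases around the upstream Atoh7 summit at chr10:63089774-63090073, both on the plus strand. The Pou4f2 coding bases are at chr8:78436179-78436404, and the Rbpms intron bases around the summits at +96.5 kb and +132 kb at chr8:33833236-33833526 and chr8:33797377-33797673, all on the minus strand.
Atoh7 coding: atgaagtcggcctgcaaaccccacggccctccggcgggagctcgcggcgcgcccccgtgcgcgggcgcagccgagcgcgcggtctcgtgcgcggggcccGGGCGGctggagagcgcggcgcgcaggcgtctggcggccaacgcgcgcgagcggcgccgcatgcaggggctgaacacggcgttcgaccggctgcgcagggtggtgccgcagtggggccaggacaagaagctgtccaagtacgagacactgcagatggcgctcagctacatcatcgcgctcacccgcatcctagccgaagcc
Atoh7 upstream: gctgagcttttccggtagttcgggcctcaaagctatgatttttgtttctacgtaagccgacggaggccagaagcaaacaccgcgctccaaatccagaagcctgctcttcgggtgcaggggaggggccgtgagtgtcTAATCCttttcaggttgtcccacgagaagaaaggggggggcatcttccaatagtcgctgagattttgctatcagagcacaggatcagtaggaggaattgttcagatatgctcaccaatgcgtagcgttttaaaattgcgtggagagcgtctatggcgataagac
Pou4f2 coding: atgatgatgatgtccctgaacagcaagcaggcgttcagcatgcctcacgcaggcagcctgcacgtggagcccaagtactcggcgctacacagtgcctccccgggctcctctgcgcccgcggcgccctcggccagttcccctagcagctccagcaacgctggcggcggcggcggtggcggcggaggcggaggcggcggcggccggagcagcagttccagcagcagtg
Rbpms +96.5 kb: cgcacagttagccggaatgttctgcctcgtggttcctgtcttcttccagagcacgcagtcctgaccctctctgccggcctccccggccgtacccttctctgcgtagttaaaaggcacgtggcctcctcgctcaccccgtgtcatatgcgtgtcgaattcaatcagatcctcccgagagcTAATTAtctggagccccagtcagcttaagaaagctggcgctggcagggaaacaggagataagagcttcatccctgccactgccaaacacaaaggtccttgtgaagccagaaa
Rbpms +132 kb: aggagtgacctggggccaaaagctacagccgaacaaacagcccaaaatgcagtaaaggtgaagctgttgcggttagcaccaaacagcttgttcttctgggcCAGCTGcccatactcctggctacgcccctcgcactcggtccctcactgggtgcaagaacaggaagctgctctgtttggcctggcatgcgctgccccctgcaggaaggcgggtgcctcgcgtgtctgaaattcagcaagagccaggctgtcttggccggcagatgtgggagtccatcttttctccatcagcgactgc

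The coding bases of Atoh7 held 73.7% GC and 1 GC box, and those of Pou4f2 held 70.4% GC and none of the motifs. By contrast, the stretch before the Atoh7 start held only 44.8% GC, at percentile 20.1 of protein-coding genes, and its summits lay in the GC-rich coding sequence and not before the start. The upstream Atoh7 region held 51% GC and 1 TAATCC, the Rbpms region at +96.5 kb held 1 TAATTA, and the Rbpms region at +132 kb held 1 E-box.

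The 3 Pou4f genes, which encode the Brn3 POU-domain factors of ganglion cell differentiation and survival, were called in very different numbers of libraries. Pou4f1 (Brn3a, chr14:104461676-104467999, minus strand) carried 1 region, over its start (chr14:104467676-104468287, 612 bp), called in all 18 libraries. Its summits had 15, 15 and 13 tags in 3mo untreated, 11, 21 and 16 in 3mo contralateral and 24, 16 and 13 in 3mo IOP retinas. At 18 months they had 14, 21 and 24 tags in untreated, 29, 14 and 17 in contralateral and 28, 19 and 15 in IOP retinas, and the groups overlapped at each age. Against the genome background the summits of Pou4f1 stood at 7.25 to 25.4 times, below those of the Atoh7 coding region in every library.

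Pou4f2 (Brn3b, chr8:78433010-78436645, minus strand), the factor that acts directly downstream of Atoh7, carried a region over its start (chr8:78436179-78436675) with the median summit 255 bp into the gene, in coding sequence. It was called in 8 libraries, at 3 months in 1 of 3 untreated, 1 of 3 contralateral and 2 of 3 IOP retinas, and at 18 months in 0 of 3 untreated, 3 of 3 contralateral and 1 of 3 IOP retinas. Where called, its summits had 8 to 14 tags, close to the lowest that the lists hold. A weaker region at -0.709 kb was called in 18mo contralateral replicate 1 and 18mo IOP replicate 1 alone, with 12 and 8 tags. Pou4f3 (Brn3c), which marks a subset of ganglion cells and is best known from hair cells of the inner ear, carried a region over its start in 3 libraries, all contralateral (3mo replicate 2 and 18mo replicates 1 and 3, with 10, 10 and 12 tags). Its other region, at +0.628 kb over coding sequence and at the start of a shorter annotated transcript, was called in 4 libraries with 9 to 11 tags. No untreated library called either Pou4f3 region.

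Isl1, a LIM-homeodomain factor that acts with Pou4f2 in ganglion cells and is also used by bipolar and amacrine cells, carried 1 region over its start (chr13:116309479-116310155, 677 bp) that was called in all 18 libraries. The gene lies at chr13:116298281-116309689 on the minus strand. Its summits had 15, 20 and 30 tags in 3mo untreated, 29, 34 and 25 in 3mo contralateral and 35, 32 and 24 in 3mo IOP retinas, and 26, 18 and 25, then 32, 29 and 38, then 26, 34 and 27 tags in the same 3 groups at 18 months. They stood at 14.3 to 39.7 times the genome background, and in tags they were higher than those at Pou4f1 in 15 libraries, equal in 1 and lower in 2.

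Rbpms, an RNA-binding protein used as a marker of all ganglion cells, held 65 of the 210 peaks and 7 of the 21 regions, in the longest of the 10 genes (chr8:33782643-33929863, minus strand). The region over its start (chr8:33929324-33930138, 815 bp, with the summit in the first untranslated exon) was called in 15 libraries with 7 to 20 tags and was missing in 3mo untreated replicate 5, 18mo untreated replicate 6 and 18mo IOP replicate 2. The strongest Rbpms region was not at the start but in an intron at +96.5 kb (chr8:33833236-33833713, 478 bp), called in all 18 libraries with 15 to 42 tags. In 14 of the 15 libraries that called both, the intron summit was the higher, the exception being 18mo IOP replicate 3 with 15 tags against 16. The other 5 regions lay in introns at +60.3, +122, +130, +132 and +143 kb and were called in 6, 2, 10, 6 and 3 libraries, with 6 to 17 tags. A further peak before the start, at -2070 bp, was listed in 18mo contralateral replicate 2 alone, with 9 tags.

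Nefl, the light neurofilament subunit of axons (chr14:68083863-68089095, plus strand), carried a region over its start (chr14:68083715-68084170) in 6 libraries, with 8 to 17 tags, and a region over coding sequence at +0.646 kb in 2. A long annotated transcript of the neighbouring Nefm runs antisense through Nefl, so these positions belong to both records. Sncg, gamma-synuclein, which is abundant in ganglion cell bodies and axons (chr14:34370274-34374789, minus strand), had no call at its start. Its regions were an intron at +1.96 kb, called in 3mo untreated replicate 6 and 3mo contralateral replicate 2 with 8 and 15 tags, and a position at -4.30 kb inside an intron of Mmrn2, called in 18mo contralateral replicates 1 and 3 with 9 and 11 tags. A peak of 18mo contralateral replicate 3 at -3994 bp, with 12 tags, was seen in no other library.

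Thy1, a surface glycoprotein carried by ganglion cells and by many other neurons (chr9:44043384-44048579, plus strand), had a wide region over its start (chr9:44042901-44043774, 874 bp) that was called in all 18 libraries with 9 to 23 tags. A second region at -2.27 kb (chr9:44040978-44041354), which also lies at the start of the noncoding transcript Gm39323 on the other strand, was called in 16 libraries with 9 to 23 tags and was missing in 18mo untreated replicates 4 and 6. Slc17a6, the vesicular glutamate transporter VGLUT2 that ganglion cells use to load synaptic vesicles (chr7:51622006-51671119, plus strand), had 0 peaks in 18 lists over its 10 kb upstream part and its whole length. When the upstream part was widened to 50 kb Slc17a6 still had none. The wider window added 6 regions to the other genes, at -33.5 kb of Atoh7 inside Pbld1, at -48.9 kb of Rbpms, and at -42.9 and -26.5 kb of Sncg inside Bmpr1a and Mmrn2, these 4 in all 18 libraries, as well as at -19.3 kb of Pou4f3 in 15 and at -30.2 kb of Thy1 in 12.

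**Figure D2:**
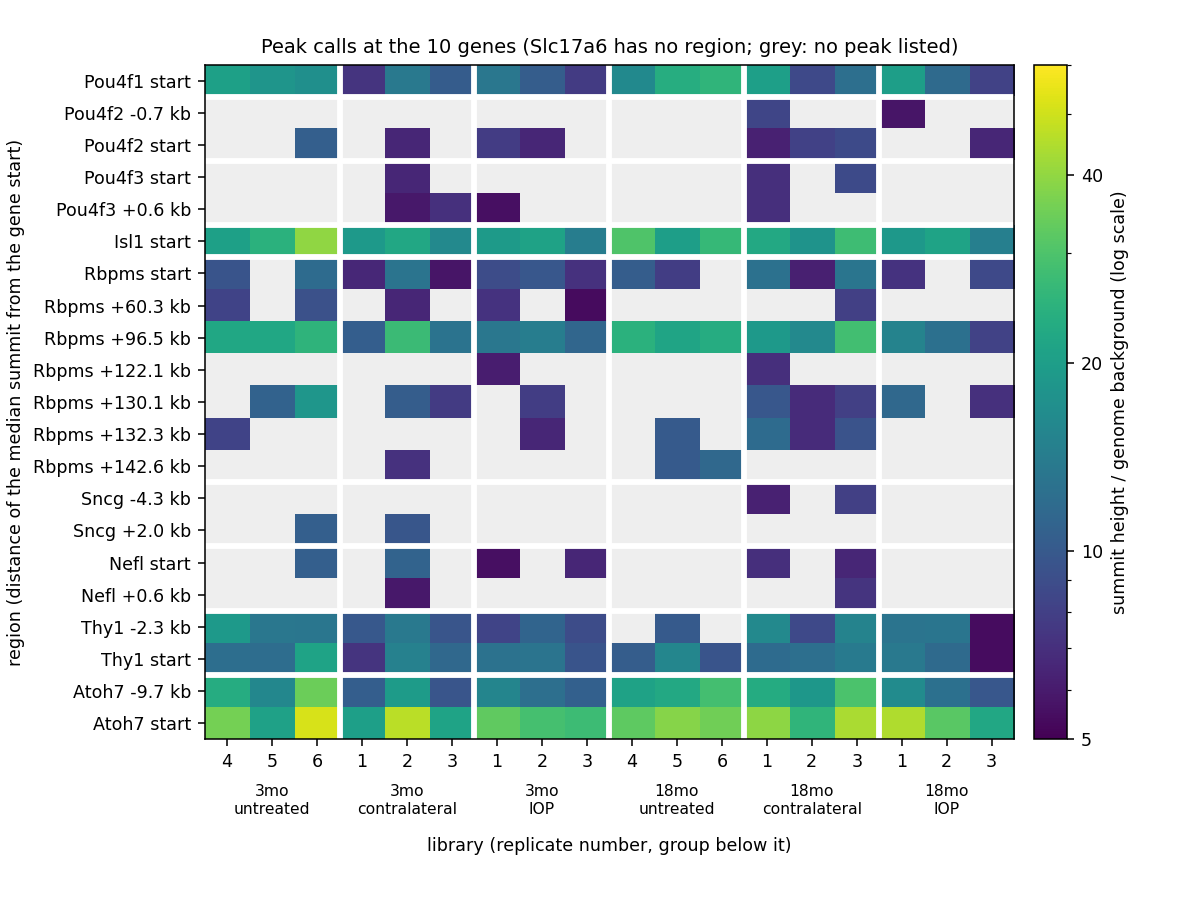
Calls at the 21 regions (rows, named by gene and distance of the summit from the start in kb) in the 18 libraries (columns, by group and replicate). Colour gives the summit height divided by the genome background of the library on a log scale, and grey means that no peak was listed. The 6 filled rows are the regions called in every library, with the Atoh7 start region the highest, and the fullest columns are 3mo contralateral replicate 2 and 18mo contralateral replicates 1 and 3.

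The number of the 21 regions called per library ran from 7 to 17. At 3 months it was 10, 8 and 13 in untreated libraries (10.3 ± 2.52), 8, 17 and 10 in contralateral ones (11.7 ± 4.73) and 13, 11 and 10 after IOP (11.3 ± 1.53, SD, n = 3 each). At 18 months the means were 8 ± 1.73 for untreated, 14.7 ± 3.21 for contralateral and 9 ± 1.73 for IOP retinas (SD, n = 3 each). The 3 libraries with the most calls, at 17, 17 and 16, were 3mo contralateral replicate 2 and 18mo contralateral replicates 1 and 3. All 3 belong to the 5 libraries whose shortest peak was 114 to 122 bp, which called 10 to 17 of the regions (mean 14.6), while the 7 libraries with a shortest peak of 148 to 157 bp called 7 to 11 (mean 9.57). The lists of the same 5 libraries held 48688 to 66160 peaks and those of the 7 held 36011 to 51166, with overlap. At 18 months the contralateral libraries called 17, 11 and 16 regions and the IOP libraries 10, 7 and 10, without overlap, but the contralateral lists were longer too (60755, 51166 and 57297 peaks against 48688, 48723 and 36011). The difference between IOP and contralateral means was -5.67 regions at 18 months and -0.333 at 3 months, and the part of list length in it was not tested.

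**Figure D3:**
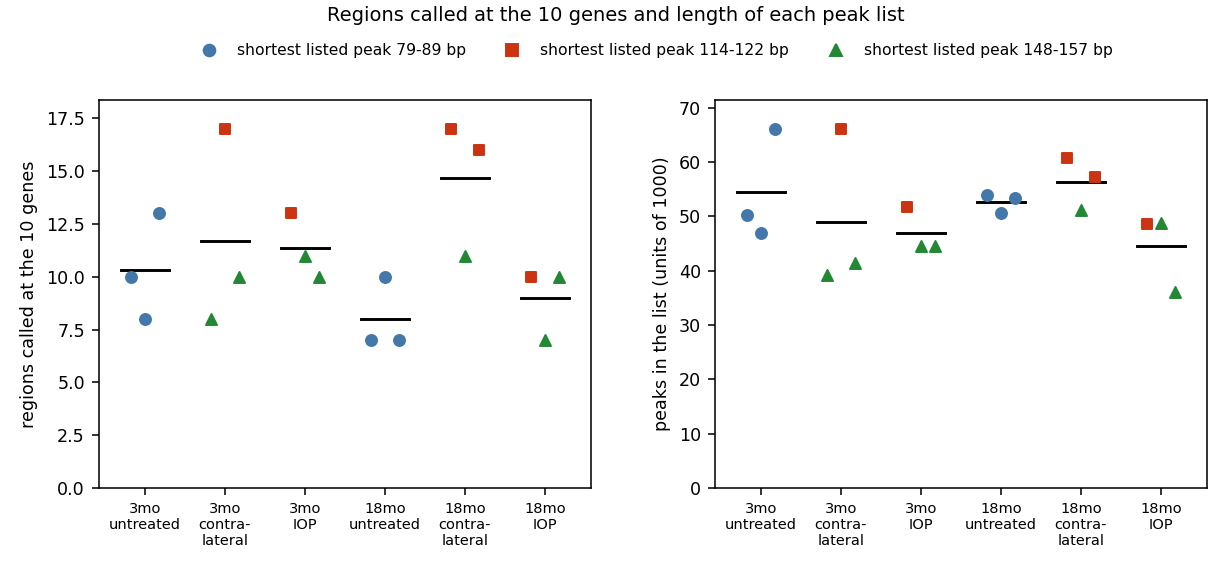
Number of the 21 regions called in each library (left, by group) and number of peaks in its list, in units of 1000 (right). Points are libraries, bars are group means, and the symbols give the length in bp of the shortest peak in the list. The 3 libraries with 16 or 17 regions all have a shortest peak of 114 to 122 bp.

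To ask whether age alone changed accessibility at these genes, the 6 control retinas of 18 months (contralateral and untreated) were compared with the 6 of 3 months. No region at the 10 genes passed a test of calling between the ages, and few could. Fisher's exact test (two-sided, run on all regions) could reach p = 0.05 for 3 of the 21 regions, of which 0 passed without adjustment. Across the genome 3.19% of 9868 such regions were called more often at 18 months and 0.385% more often at 3 months without adjustment, and 0% after Benjamini-Hochberg adjustment. The largest difference among the 3 was the Rbpms region at +132 kb, called in 4 of 6 retinas of 18 months and 1 of 6 of 3 months (exact p = 0.242, adjusted p = 1). The Pou4f2 start region was called in 3 of 6 and 2 of 6, and the Rbpms region at +130 kb in 3 of 6 and 4 of 6 (exact p = 1 for each).

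For the 6 regions called in every library, strength was compared as a percentile: within each library the 24751 regions called in all 18 libraries were ordered by −log10 q-value, so that a percentile near 100 marks the strongest of them. The Atoh7 start region stood near the middle of that set, at 51.0 ± 13.4 (SD, n = 18). Isl1 followed at 33.5 ± 9.41, the Rbpms region at +96.5 kb at 26.4 ± 8.77, the upstream Atoh7 region at 21.3 ± 10.7, Pou4f1 at 14.9 ± 11.6 and Thy1 at 4.39 ± 4.00. Atoh7 ranked above Isl1 in 15 of 18 libraries and Thy1 below Pou4f1 in 13 of 18, and the means of neighbours from Isl1 down to Thy1 lay within 1 SD of the more variable of each pair.

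None of the 6 percentiles passed an exact permutation test between ages over libraries (two-sided), where 4.37% of the 24751 regions were higher and 3.76% lower at 18 months without adjustment and 0% after it. The median difference was 1.34 percentile points over the 6 regions and -0.123 over all 24751. The upstream Atoh7 region came nearest, at 29.7 ± 10.7 in 18mo and 16.96 ± 10.5 in 3mo controls (SD, n = 6 each, a difference of 12.8, exact permutation p = 0.0628, adjusted p = 0.658); it was named after its values were seen. The difference lay between the contralateral retinas, with percentiles of 30.3, 37.2 and 44.0 at 18 months and 9.78, 24.4 and 4.84 at 3 months. These did not overlap (24.2 points, exact permutation p = 0.1, the smallest that 3 against 3 can give), while the untreated retinas differed by 1.39 points (exact permutation p = 0.9). Leaving out 3mo untreated replicate 6 brought the difference to 15.8 (exact permutation p = 0.0281), and leaving out 18mo untreated replicate 4 or 5 to 15.5 (p = 0.0411) or 15.02 (p = 0.0476). In the other 14 settings tried it ran from 9.93 to 17.1 and did not pass (exact permutation p = 0.0606 to 0.128). The other 5 regions differed by -1.67 to 5.76 points, with exact permutation p from 0.377 for Pou4f1 to 0.929 for the Rbpms region.

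**Figure D4:**
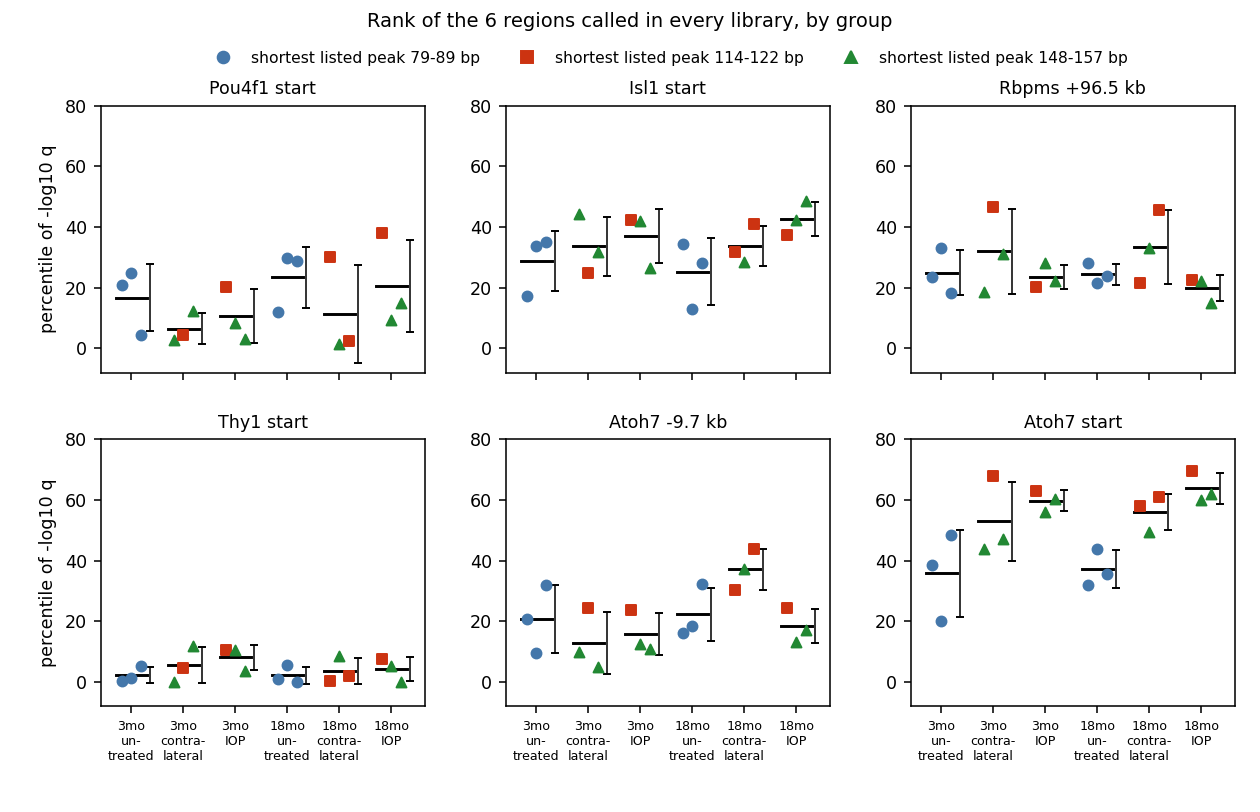
Percentile of −log10 q of the 6 regions called in every library, by group. Points are libraries, horizontal bars group means, vertical bars 1 SD of 3 libraries, and symbols the length in bp of the shortest listed peak. The upstream Atoh7 region is highest in the 18mo contralateral retinas, and the Atoh7 start region is lower in both untreated groups than in the others.

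Whether mild IOP elevation changed accessibility at the ganglion cell genes was asked by comparing IOP with contralateral retinas. Over both ages, with age as a stratum, 0 of the 2 regions for which an exact conditional test could reach p = 0.05 passed it without adjustment: the Pou4f2 start region was called in 3 of 6 IOP and 4 of 6 contralateral retinas, and the Nefl start region in 2 of 6 and 3 of 6 (exact p = 1 for each). Across the genome 1.62% of 5572 regions were called more often and 3.43% less often after IOP without adjustment, and 0% after it. At 3 months 0 of the 21 regions were called in all 3 IOP and no contralateral library, and 0 in the reverse, beside 0.217% and 0.241% of all regions. At 18 months 0 regions were called in all IOP and no contralateral libraries, beside 0.239%, and 1 region was lost in this sense, beside 2.23%.

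That region was the Rbpms intron at +132 kb (chr8:33797377-33797673, 297 bp). It was called in 18mo contralateral replicates 1, 2 and 3 with 17, 11 and 13 tags and a fold over the local background of 5.94, 4.59 and 4.41, and in none of the 18mo IOP retinas. Elsewhere it was called in 3mo untreated replicate 4 with 6 tags, in 18mo untreated replicate 5 with 9 and in 3mo IOP replicate 2 with 10. The region was thus absent from most untreated retinas as well, and no p-value under 0.1 is possible with 3 libraries against 3. When each list was cut to its 36011 strongest peaks the region no longer met the criterion and the count was 0. Leaving out 18mo contralateral replicate 2 raised the count to 4, with the starts of Pou4f3 and Nefl and the Sncg region at -4.30 kb. Leaving out 18mo IOP replicate 3 raised it to 2, with the Pou4f2 start region. With a library left out fewer libraries had to agree, so the criterion was easier to meet anywhere in the genome. The share of all regions that met it in this form is not given here. The contralateral replicates 1 and 3 that were kept for the count of 4 had the longest 18mo lists (60755 and 57297 peaks).

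In percentiles none of the 6 regions passed a test of IOP against contralateral retinas with labels permuted within each age (two-sided), where 4.36% of the 24751 regions were higher and 3.78% lower without adjustment and 0% after it. The median difference was 3.92 points over the 6 regions and 0.00135 over all. The Rbpms region at +96.5 kb stood at 21.7 ± 4.27 after IOP and 32.7 ± 11.7 in contralateral retinas (SD, n = 6 each, a difference of -11.1, exact permutation p = 0.08, adjusted p = 0.632). Without 3mo contralateral replicate 1 this difference was -13.9 (exact permutation p = 0.03) and without 18mo contralateral replicate 1 it was -13.3 (p = 0.035). In the other 13 settings tried it ran from -14.5 to -8.32 and did not pass (exact permutation p = 0.075 to 0.155). The Atoh7 start region stood at 61.8 ± 4.43 and 54.6 ± 9.21 (a difference of 7.24, exact permutation p = 0.125, adjusted p = 0.681). Ordered by fold in place of −log10 q, it differed by 12.6 (exact permutation p = 0.035), and without 3mo contralateral replicate 2 by 9.91 (p = 0.025). In the other 13 settings tried it differed by 1.91 to 8.50 and did not pass (exact permutation p = 0.105 to 0.655). Isl1 differed by 6.19 points, Pou4f1 by 6.70 and Thy1 by 1.66 (exact permutation p = 0.19, 0.34 and 0.495).

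Over both ages the upstream Atoh7 region differed by -7.94 points between IOP and contralateral retinas (exact permutation p = 0.195, adjusted p = 0.742). This region was also followed within each age. After IOP at 18 months it had percentiles of 24.6, 13.4 and 17.3, all below the 30.3, 37.2 and 44.0 of the contralateral retinas (-18.7 points, exact permutation p = 0.1, the smallest possible). At 3 months the difference was 2.87 (exact permutation p = 0.6), with 23.9, 12.7 and 11.0 after IOP. The difference between the ages in the IOP effect was -21.6 points (exact permutation p = 0.055, 6 regions tested), which did not pass, and the 18mo contralateral retinas enter this comparison and the age comparison above alike. Untreated 18mo retinas had 16.2, 18.5 and 32.2 and overlapped with both groups. For the other 5 regions the difference between ages had exact permutation p from 0.565 to 0.935.

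The 2 kinds of control were also set against each other, because the untreated libraries had the shorter peaks and the lower background. Of 3 regions for which Fisher's exact test could reach p = 0.05, 0 passed, beside 5.89% of 9868 regions called more often in untreated and 5.55% more often in contralateral retinas without adjustment and 0% after it. Percentiles differed far more widely between the kinds of control: 18.3% of the 24751 regions were higher and 20.1% lower in untreated retinas without adjustment, and 22.9% passed after it (exact permutation test, added after the data were seen). Of the 6 regions at the 10 genes 1 passed, the Atoh7 start region, with percentiles of 38.6, 20.3 and 48.6 (3mo) and 31.99, 44.0 and 35.8 (18mo) in untreated retinas and 43.9, 67.9 and 47.3 (3mo) and 58.0, 49.4 and 60.9 (18mo) in contralateral ones. The means were 36.6 ± 9.93 and 54.6 ± 9.21 (SD, n = 6 each, a difference of -18.0, exact permutation p = 0.0108, adjusted p = 0.0472). Placed among all peaks of each library, the difference was -9.18 and no longer passed (exact permutation p = 0.117). Since every untreated library also had the shortest peaks of 79 to 89 bp, the kind of control and that property of the lists cannot be told apart.

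A list of 32 other genes of ganglion cells, fixed by name, gave 104 regions, of which 25 were called in all 18 libraries. Of the 10 genes the promoter (1 kb before to 100 bp after the start, counted by the regions that overlap it) was called in all libraries for 4, in some for 4 and in none for 2, with a median of 12 libraries. Of the 32 others it was called in all for 9, among them the tubulin Tubb3, the neurofilament Nefh and the neurosecretory gene Cartpt, in some for 11 and in none for 12. Opn4 (melanopsin), Spp1 and Irx4 had no region at all. Of 21755 protein-coding genes 49.9% had a promoter called in all libraries, 8.88% in some and 41.2% in none. Among lists of 6 markers of other retinal cells, promoters were called in all libraries for 6 rod, 1 cone, 2 bipolar, 1 amacrine or horizontal and 2 Müller glia genes.

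**Figure D5:**
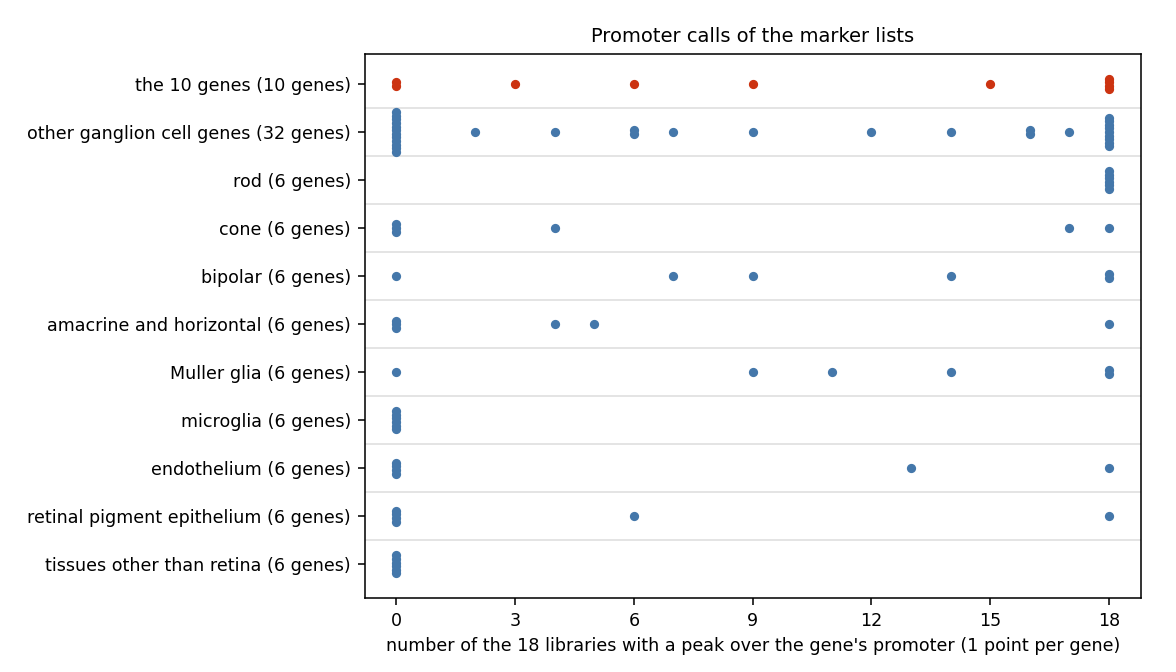
Number of the 18 libraries with a peak in a region over the promoter, 1 point per gene, for the 10 genes (red) and for other marker lists (blue). The 6 rod genes sit at 18 and the 6 microglial genes at 0, while both ganglion cell lists spread over the whole axis.

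The regions of the other ganglion cell genes passed no test of calling for age (0 of 15 that could be tested) or for IOP (0 of 8). Among the genes given here by name, Foxp2 had a smallest exact p of 0.0606 for age, but none of its regions could reach p = 0.05 in that test. Ebf1 had an exact p of 0.05 for IOP, which did not pass. At 18 months 1 of the 104 regions was called in all IOP and no contralateral libraries, beside 0.239% of all regions, and 2 in the reverse, beside 2.23%. The first lay at Ebf1, a helix-loop-helix factor, and 1 of the 2 at Gap43, the growth cone protein. Both genes were named after their values were seen. By percentile 4 of 25 regions were lower at 18 months without adjustment (at Sox4, Ebf1 and Uchl1), beside 3.76% of all regions, and 2 lower after IOP (at Elavl4 and Chrnb3), beside 3.78%, while 0 were higher in either comparison and none passed after adjustment.

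In sequence, the 21 regions were close to the genome-wide set in the motifs they held. Within 300 bp around the median summit, an E-box (CAGCTG) was found in 6 of 21 regions (28.6%, beside 22.7% of all regions) and a GC box (GGGCGG) also in 6 (28.6% beside 22.1%). TAATCC was found in 3 (14.3% beside 17.7%) and TAATTA in 1 (4.76% beside 6.20%), and 0 regions held TGANTCA or TTCNNNGAA, beside 9.09% and 7.06%. The 8 regions over a gene start had a median GC content of 68.8%, from 62% to 80%, and the 13 others one of 55%, from 49% to 66%, while all regions had a median of 51.7% and those called in all 18 libraries 57%.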

How the data were processed

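ATAC-seq was performed on whole mouse retina, in 18 libraries. The authors called peaks per library with MACS2 at a q-value of 0.05, without pooling replicates; the submitters' processing notes also name STAR 2.7.8a, HOMER, edgeR and bedtools 2.29.2, and the mm10 build. The handling of duplicates and of the transposase shift is not given in the sources used here. The deposited lists hold a score, a fold (the ratio of summit pileup to local background, with the same constant added to both) and a −log10 p-value and −log10 q-value per peak. No read counts were used, and the depth of each library is unknown, so no counting interval was given.

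Peaks overlapping by at least 1 bp were merged and kept where 2 or more libraries had a peak. Regions were annotated with GENCODE M21 by their median summit (promoter, 1 kb before to 100 bp after a transcript start). Summit heights were the whole tag numbers that gave the listed fold and −log10 p-value within 0.001, which held for 100% of the peaks examined. Calling was tested with Fisher's exact test (age, kind of control) or an exact conditional test with age as a stratum (IOP), over every region whose p-value can fall under 0.05. Percentiles were tested by exact permutation, and all adjustments were Benjamini-Hochberg over all regions tested. The tests were tried on simulated data with 200 planted regions, of which 100% were recovered without adjustment for IOP calling and for age calling (73567 regions) and 91.5% for age percentiles (24751 regions). For calling, planted regions were called in every library of one side and in none of the other, so full recovery was given by the setting. For percentiles, the planted shift was larger than the age difference over all controls of any region at the 10 genes. The recovery of smaller differences was not tested.

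The members, lists and tests were chosen with earlier results of these data known. Given in full by rule were the region at each start, those with an unadjusted p-value under 0.05 or with groups that did not overlap in calling, and the highest-ranked region away from a start. The values of 1 gene of the list of other ganglion cell genes are not reported here by name. The other regions are given by counts and ranges, and those described further were picked after their values were seen. Alternatives were a q-value of 0.01, 50% coverage of the region, equal list lengths, regions of at least 1 library, windows of 50 kb and of the gene body, strata, a replicate block, ranking by fold or among all peaks, and leaving out each library. Python 3.11.15 with numpy 2.4.6, scipy 1.17.1, pandas 2.3.3 and matplotlib 3.10.9 was used.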

Additional observations from a re-analysis of the deposited data

How the results depend on the processing

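Over the alternatives, 0 regions at the 10 genes passed without adjustment for age or IOP in calling, and 0 were called in all libraries of one 3mo group and none of the other. The 18mo count of 1 such region (Rbpms at +132 kb, lost after IOP) became 0 with equal list lengths and ran from 1 to 4 when libraries were left out in turn (2 without IOP replicate 3, 4 without contralateral replicate 2). Leaving a library out also made that criterion easier to meet. The count for the kind of control in calling became 1 when peaks had to cover 50% of the region (Thy1 at -2.27 kb). The age count in percentiles ran from 0 to 1 with libraries left out, the 1 being the upstream Atoh7 region. The IOP count in percentiles became 1 when ranked by fold (Atoh7 start) and ran from 0 to 1 with libraries left out: without 3mo contralateral replicate 1 or 18mo contralateral replicate 1 it was the Rbpms region at +96.5 kb, and without 3mo contralateral replicate 2 the Atoh7 start. The count of 1 for the kind of control in percentiles became 2 when ranked by fold (with Rbpms at +96.5 kb, a difference of -15.9, exact permutation p = 0.0433), 0 when placed among all peaks, and ran from 1 to 2 with libraries left out: without 3mo untreated replicate 6 or 18mo contralateral replicate 1 Pou4f1 passed as well (differences of 14.3 and 15.4, exact permutation p = 0.0433 and 0.0216). The causes were not tested.

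Same-numbered IOP and contralateral libraries did not deviate together throughout (correlations of -0.285, -0.314 and 0.184 at 3 months and 0.333, 0.250 and -0.108 at 18 months). With 3 libraries per group these values cannot decide whether same-numbered libraries came from the same animal, and the labels do not say. With a replicate block the counts in percentiles were 0 for age and 0 for IOP. In calling they were 0 as well, but they could not have been higher. The paired test passes only where the libraries of every pair differ in their call, and no region at the 10 genes had a number of calls that allows this. With 3 libraries against 3 a single age cannot give p under 0.1, and a region not called may lie just under a threshold of 5 to 8 tags.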
